A study of Mus musculus with 24 samples.

Results

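Microglia are the resident macrophages of nervous tissue, and here they came from mouse retinas with moderate glaucoma. They were compared with microglia of the matched control strain. DBA/2J is an inbred strain with an age-related glaucoma and carries the genotype Gpnmb-/- Tyrp1b-/-. The control is DBA/2J Gpnmb+, with the genotype Gpnmb+/+ Tyrp1b-/-, so both groups share the Tyrp1 mutation, and both were 12 months old and untreated. The labels number the animals, and some animals gave both eyes. Chosen were the DBA/2J retinas that the labels grade as moderate, 4 retinas of 3 animals (the right eye of animal 1, both eyes of animal 2 and the left eye of animal 5), and the 9 Gpnmb+ retinas of 5 animals. These are 13 of the 24 retinas, and 8 of the 15 animals, of the series. The remainder are 3 mild retinas (2 animals) and 3 severe retinas (2 animals) of DBA/2J at 12 months and 5 DBA/2J retinas (5 animals) at 6 months. Cells were sorted from each retina as CD11b+ and Fcrls+ without Ly6c, a gate meant to keep resident microglia, and 1 library was made per retina from small numbers of cells. Counts of an animal's eyes with the same grade were summed, so n is the number of animals. The grade belongs to the eye: animals 1 and 5 each have 1 moderate eye and a fellow eye of another grade.

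In the healthy nervous system microglia depend on Csf1r and TGF-beta signalling and express homeostatic genes such as P2ry12, Tmem119 and Sall1. Near damaged neurons they are known to shift to a neurodegenerative state (MGnD), in which Apoe and lysosomal, complement and antigen presentation genes are induced and homeostatic genes are repressed. Glaucoma damages retinal ganglion cells, and the microglia around their axons and cell bodies are known to respond early.

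Depth differed between libraries. Moderate retinas had 4983359 to 15825437 counts and 11007 to 14784 genes with at least 1 count, and Gpnmb+ retinas had 977873 to 14845259 counts and 3466 to 14460 genes. The 5 retinas with fewer than 10000 genes are both eyes of Gpnmb+ animals 1 and 2 and the right eye of Gpnmb+ animal 3. Fits without these retinas therefore leave out Gpnmb+ animals 1 and 2 altogether, and the effects of depth and of these animals cannot be told apart. Gpnmb itself, a membrane glycoprotein gene, had reads in 1 of the 13 retinas, the left eye of Gpnmb+ animal 5 (459 counts), and Tyrp1, a melanosomal enzyme gene, had 0 counts in all 13. Since 8 of the 9 control retinas were at 0 for Gpnmb as well, these genes could not check the labels. Fcrls, whose protein was a sort marker, had 106, 93.9, 0 and 17.1 CPM (counts scaled to an equal library total) in the moderate retinas and 0 to 78.7 CPM in the Gpnmb+ retinas. Its mRNA was thus absent from some libraries of both groups. The Y-linked gene Ddx3y had counts in animal 5 of each group and in no other of the 8 animals. In the right eye of Gpnmb+ animal 5 the X-inactivation transcript Xist, a female marker, had 1744 counts beside 925 of Ddx3y, while its left eye had 0 and 592. This library thus carries signals of both sexes, and fits without animal 5 are among the alternatives.

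At a nominal p under 0.05, moderate retinas had higher levels of Apoe, of the C1q chain genes C1qa and C1qb, of some MHC class I and Fc gamma receptor genes and of most ribosomal protein genes, and lower levels of most immediate early genes and of part of the homeostatic genes. None of these differences survived adjustment. The quasi-likelihood test of edgeR called 0 of 15965 genes (0%) at an adjusted p under 0.05; Apoe and Bcl9 shared the smallest value, 0.165. A nominal p (before adjustment) under 0.05 was reached by 1353 genes, with the spread estimated over the 17 sums of the series. With only the 3 moderate and 5 Gpnmb+ sums in the fit, 393 of 12362 genes reached it, 156 of them higher in moderate retinas. That is a smaller share than the 8.47% of the fit with 17 sums, so the nominal count depended on the groups that entered the fit. The counts below are from the 17 sums unless another fit is named. Of the 15965 tested, 760 (4.76%) were higher and 593 (3.71%) lower in moderate retinas at that level, and this is the background against which the counts below are given. The groups did not overlap over animals for 401 genes (2.51%) with moderate higher and 182 (1.14%) with moderate lower. Overlap below is over animals unless retinas are named, and single retinas could overlap where animals did not. The median log2 fold change of all genes was -0.02. Below, "nominally higher" or "nominally lower" means a nominal p under 0.05 in this test, fold changes are moderate over Gpnmb+, and CPM of single genes per animal are scaled by TMM, while CPM per retina and summed marker CPM use the library total. In bulk libraries fewer cells of a type and less RNA per cell cannot be told apart.

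**Figure D1:**
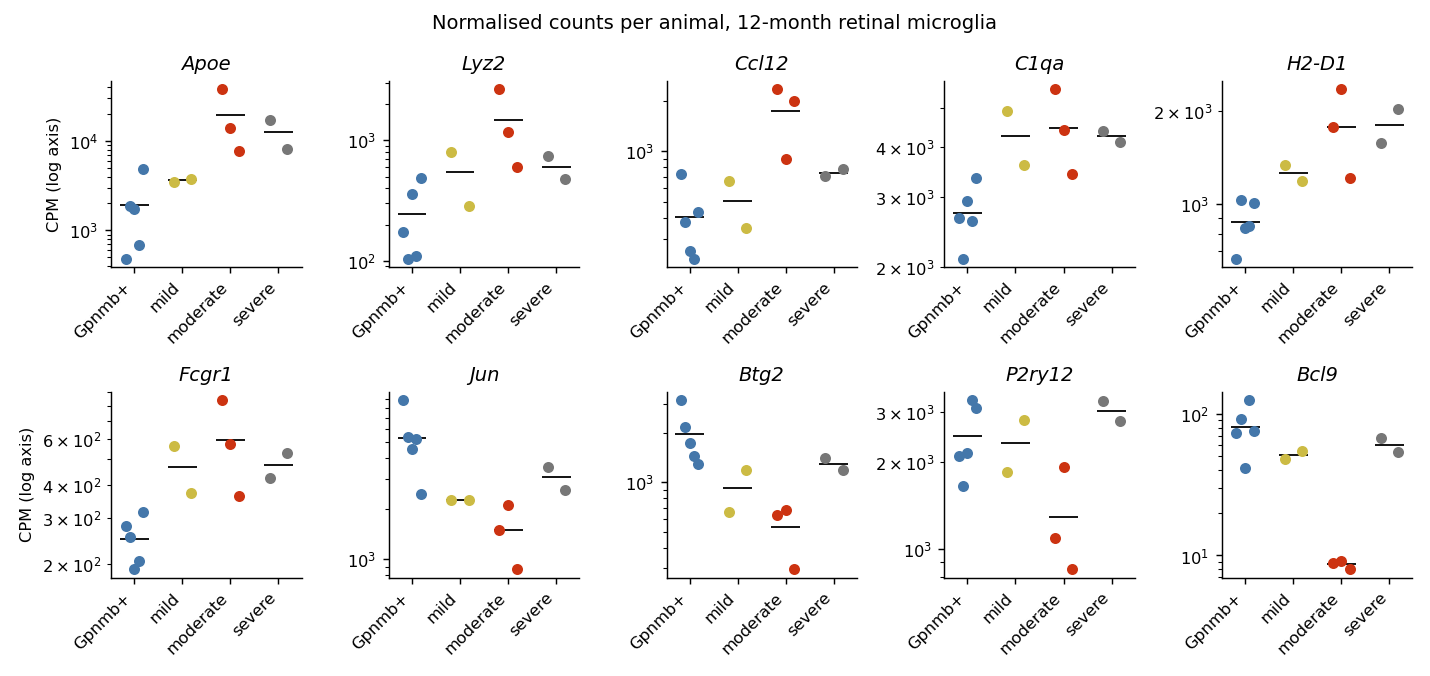
Normalised counts (CPM, log axis) of 10 genes in each animal (points) with the group mean (line), for Gpnmb+ (5 animals), mild (2), moderate (3) and severe (2) DBA/2J at 12 months. Moderate animals lie above every Gpnmb+ animal for Apoe, Lyz2, Ccl12, C1qa, H2-D1 and Fcgr1 and below every one for Jun, Btg2 and Bcl9, while P2ry12 overlaps.

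Apoe encodes apolipoprotein E, the main lipid carrier secreted by glia. It had 37529, 13830 and 7654 CPM in moderate animals 1, 2 and 5, against 484, 1881, 1746, 685 and 4891 CPM in Gpnmb+ animals 1 to 5. Every moderate animal was above every Gpnmb+ animal, but the moderate animals spanned a wide range. The log2 fold change was 3.34 ± 0.58 (SE), with means of 19671 ± 15771 CPM (SD, n = 3) and 1937 ± 1764 CPM (SD, n = 5). Apoe lies on chromosome 7 from 19696109 to 19699188 (GRCm38). The mild animals had 3491 and 3784 CPM and the severe ones 16920.0 and 8133 CPM, so the moderate and severe animals shared a range. Single animals decided the call: with 1 animal left out, the log2 fold change ran from 2.47 to 4.04 and the edgeR adjusted p from 0.00807 (without Gpnmb+ animal 5) to 0.855 (without moderate animal 1), and it was 0.0403 without moderate animal 5.

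Immediate early genes encode transcription factors and feedback regulators that cells switch on within minutes of a stimulus, including the handling of tissue. Of 36 listed, 34 passed the filter, and 33 of these had negative log2 fold changes, with a median of -1.84. Of the 34, 23 were nominally lower and 0 nominally higher, and for 11 the groups did not overlap, with moderate lower. Jun, a subunit of the AP-1 transcription factor, had 1498, 2093 and 868 CPM in moderate animals 1, 2 and 5, and 8882, 5358, 4532, 5221 and 2462 CPM in Gpnmb+ animals 1 to 5. The groups did not overlap, and the log2 fold change was -1.83 ± 0.39 (edgeR adjusted p 0.577). Btg2, an antiproliferative gene, had 633, 676 and 295 CPM against 1297 to 3154 CPM (log2 fold change -1.87 ± 0.42). Sgk1, a kinase gene induced by serum and glucocorticoids, had a log2 fold change of -1.93 ± 0.46, and the AP-1 subunit gene Junb one of -1.37 ± 0.33. Ier2, a nuclear immediate early gene, had 169.7, 382 and 290.5 CPM in the moderate animals and 419 to 2817 CPM in the Gpnmb+ animals. These 5 genes, the members with the smallest p, were each lower in the 3 moderate animals than in any Gpnmb+ animal, and each had an adjusted p of 0.577 or 0.579 by edgeR. The exception in direction was Gadd45g, a stress-response gene named after its values were seen, with 53.5 to 197 CPM against 38.5 to 221 CPM and a log2 fold change of 0.45 ± 0.67. The count of 23 became 15 without moderate animal 5 and 13 without the 5 retinas under 10000 genes, with medians of -1.5 and -1.19.

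Promoters of this group are shown because 33 of its 34 tested members pointed the same way. The cAMP response element (CRE), TGACGTCA, is a known binding site of CREB at such promoters. It was searched on both strands in the 250 bases before the start in the RefSeq promoter table (GRCm38.p6). The background of 32851 counts every entry of that table, while each list has 1 start per gene, the nearest to the annotated gene start. The shares are thus of unlike units. It occurred in 508 of 32851 promoters (1.55%) and in 2 of the 28 promoters matched to the immediate early list, those of Btg2 and Dusp1. The shorter TGACGT, which the full element contains, occurred in 2125 promoters (6.47%) and in 6 of the 28 (21.4%), Fos among them. Neither was particular to this list: ribosomal protein promoters held TGACGTCA in 4 of 31 (12.9%) and TGACGT in 8 (25.8%), and class I promoters TGACGT in 4 of 17 (23.5%). The serum response factor site, the CArG box, occurred in 482 promoters (1.47%) and 2 of the 28. A match describes the letters of a window and does not show that a factor is bound there. Capitals mark TGACGTCA or TGACGT, and each window ends at the base before the start.
Btg2, chr1:134079156-134079405, minus strand: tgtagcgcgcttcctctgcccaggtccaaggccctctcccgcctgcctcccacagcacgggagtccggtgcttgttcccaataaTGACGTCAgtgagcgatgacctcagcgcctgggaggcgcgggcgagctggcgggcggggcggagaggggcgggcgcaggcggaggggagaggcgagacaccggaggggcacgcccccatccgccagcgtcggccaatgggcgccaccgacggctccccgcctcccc
Dusp1, chr17:26508473-26508722, minus strand: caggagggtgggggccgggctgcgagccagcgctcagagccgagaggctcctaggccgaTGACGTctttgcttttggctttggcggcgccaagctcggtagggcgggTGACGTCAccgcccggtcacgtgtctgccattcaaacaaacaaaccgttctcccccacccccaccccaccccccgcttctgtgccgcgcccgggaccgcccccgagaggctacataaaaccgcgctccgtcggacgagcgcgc
Fos, chr12:85473640-85473889, plus strand: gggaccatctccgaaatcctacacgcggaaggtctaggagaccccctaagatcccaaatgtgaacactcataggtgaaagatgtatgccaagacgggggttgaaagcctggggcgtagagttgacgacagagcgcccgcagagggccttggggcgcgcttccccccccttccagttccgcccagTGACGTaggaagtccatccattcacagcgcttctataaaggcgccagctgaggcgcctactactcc
Btg2 and Dusp1 hold the full element, at bases -166 to -159 and -143 to -136 from the start, and Fos has TGACGT at -66 to -61. Fos and Dusp1 were chosen for display after their values were seen. Fos, an AP-1 subunit gene, had 1267, 1226 and 522 CPM in the moderate animals against 1616 to 5610 CPM, without overlap (log2 fold change -1.63 ± 0.41). Dusp1, a phosphatase that switches off MAP kinases, had 403, 1066 and 335 CPM against 919 to 3319 CPM, with overlap (-1.64 ± 0.48).

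Homeostatic genes were lower in part. Of 40 listed and tested, 32 had negative log2 fold changes, with a median of -0.36, and 9 were nominally lower and 1 nominally higher. The 9 were Jun, Rhob and Egr1, which the immediate early list also holds, and P2ry12, Cd33, Tgfbr1, Sall1 and the receptor genes Gpr34 and P2ry13. By edgeR the adjusted p was 0.577 for Jun, 0.585 for P2ry13 and 0.579 for the other 7. P2ry12, the purine receptor that steers microglial processes, had 1091, 1921 and 849 CPM in moderate animals 1, 2 and 5 and 2110, 1651, 2158, 3286 and 3099 CPM in Gpnmb+ animals 1 to 5. Moderate animal 2 lay within the Gpnmb+ range and the other 2 below it (log2 fold change -0.94 ± 0.27). Sall1, a transcription factor of microglial identity, had 114, 218 and 81.2 CPM against 199.5 to 560.5 CPM (-1.24 ± 0.42), again with overlap through animal 2. Cd33, a sialic acid receptor gene, had 75.4, 175 and 124 CPM against 178 to 399.6 CPM (-1.24 ± 0.39), without overlap. Tgfbr1, a TGF-beta receptor subunit, had 333, 309.5 and 213 CPM against 434 to 539 CPM (-0.78 ± 0.26), without overlap. Rhob, a small GTPase gene, had a log2 fold change of -1.84 ± 0.51.

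The defining genes Tmem119, Cx3cr1 and Csf1r overlapped between the groups and had no nominal p under 0.05. Tmem119, a microglial surface protein, averaged 1675 ± 767 CPM in moderate animals (SD, n = 3) and 1528 ± 407 CPM in Gpnmb+ animals (SD, n = 5), and its log2 fold change was 0.13 ± 0.25. For the fractalkine receptor gene Cx3cr1 it was -0.37 ± 0.27 and for the survival receptor gene Csf1r -0.25 ± 0.29. Olfml3, a secreted matrix protein gene and the single homeostatic gene that was higher, had 3388, 3630 and 2508 CPM against 1664 to 2383 CPM (0.61 ± 0.21, named after its values were seen). The summed CPM of the homeostatic list was 69909, 65914 and 49643 in the moderate animals and 63207 to 87707 in the Gpnmb+ animals. Without the 5 retinas under 10000 genes the number of lower genes was 15 and the median -0.60.

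The MGnD list had 37 of 40 genes past the filter, of which 30 had positive log2 fold changes, with a median of 0.88. At a nominal p under 0.05, 10 were higher and 0 lower, and for 9 the groups did not overlap, with moderate higher. After Apoe the smallest p belonged to Lyz2, a lysozyme gene of phagocytes, with 2646, 1182 and 604 CPM in moderate animals 1, 2 and 5 and 173, 104, 355, 110 and 486 CPM in Gpnmb+ animals 1 to 5. The groups did not overlap (log2 fold change 2.59 ± 0.61). Fth1, the ferritin heavy chain gene, had 5275, 2397 and 1848 CPM against 853 to 2217 CPM (1.21 ± 0.33). Ctsz, a lysosomal cathepsin gene, had 3396, 2762 and 2039 CPM against 1002 to 1969 CPM (0.77 ± 0.22). These genes, with B2m described below, each had an edgeR adjusted p of 0.579. The count of 10 was 6 without moderate animal 1 and 16 without Gpnmb+ animal 5.

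Among the best known MGnD genes, Axl, a receptor kinase that recognises dying cells, separated the animals, with 212, 164 and 277 CPM against 7.43 to 122 CPM (log2 fold change 1.88 ± 0.58, edgeR adjusted p 0.579). Itgax, the CD11c gene, had 26.3, 33.1 and 43.6 CPM in the moderate animals against 0 to 6.09 CPM, and Lgals3, the galectin-3 gene, 18.5, 14.4 and 43 CPM against 0 to 9.31 CPM. Both separated the animals, yet their fold changes had wide errors (3.35 ± 1.77 and 2.86 ± 2.36) at these low levels. By retina both overlapped. The left eye of moderate animal 2 had 0.81 CPM of Itgax and 0 of Lgals3, and Gpnmb+ retinas reached 11.5 and 12.8 CPM. Spp1, the osteopontin gene, had 312, 53.7 and 353 CPM against 0 to 122 CPM, with overlap. Trem2, the lipid-sensing receptor gene, had a log2 fold change of 0.29 ± 0.24. Clec7a, the dectin-1 gene, pointed the other way on average (-0.58 ± 0.82), with 1.37, 57.9 and 224 CPM in moderate animals 1, 2 and 5 against 73.6 to 184 CPM. The moderate animals thus ran from near 0 to above every Gpnmb+ animal.

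Lipid handling genes, many of them targets of the LXR receptors, had 24 of 26 past the filter and 18 with positive log2 fold changes (median 0.88), 4 nominally higher and 1 nominally lower. The 4 were Apoe, Apoc2, Npc2 and Nr1h3, and the 1 was Mylip, which promotes degradation of the LDL receptor (-1.10 ± 0.48). Npc2, a lysosomal cholesterol carrier, had 1034, 878 and 651 CPM against 201 to 615 CPM (0.88 ± 0.31). Apoc2, a lipase cofactor and neighbour of Apoe, had 11.9, 2.45 and 11.9 CPM in the moderate animals and 0 counts in the 5 Gpnmb+ animals. Nr1h3, which encodes an LXR receptor, had 17 CPM in moderate animal 2 and 0 in the other 7 animals, so 1 library decided its p. Without Gpnmb+ animal 5, 10 genes were higher.

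Complement genes had 15 of 21 past the filter, 13 of them with positive log2 fold changes (median 0.71), and 4 nominally higher and 0 nominally lower. C1qa, a chain of C1q, the starter of the classical pathway, had 5571, 4412 and 3424 CPM in the moderate animals against 2660, 2100, 2932, 2605 and 3338 CPM in Gpnmb+ animals 1 to 5. The groups were separate by a narrow gap, with a log2 fold change of 0.71 ± 0.18. C1qb had 7160, 4490 and 3446 CPM against 2085 to 3052 CPM (0.89 ± 0.22). C1qc, the third chain, named after its values were seen, had 1358, 1748 and 2105 CPM against 767 to 2885 CPM and a log2 fold change of -0.11 ± 0.37. C4b, a later component whose reads the near copy C4a can take, had 164, 177 and 189 CPM against 0 to 11.6 CPM, and severe animals were as high (196 and 148 CPM). Cfb, a factor of the alternative pathway, had 17.3 CPM in moderate animal 2, 0.685 in animal 1 and 0 in animal 5. C5ar1, the receptor of C5a, had 157, 196 and 221 CPM against 31.1 to 139.8 CPM (1.10 ± 0.53, edgeR adjusted p 0.588). Without Gpnmb+ animal 3 the count of higher genes was 7.

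Fc gamma receptors bind the constant part of IgG, and Tyrobp and Fcer1g are their signalling adaptors. Of 12 listed and tested, 10 had positive log2 fold changes (median 0.77), and 5 were nominally higher and 0 nominally lower. Fcgr1, the high-affinity receptor, had 838, 573 and 364 CPM against 279, 255, 192, 206 and 316 CPM (log2 fold change 1.25 ± 0.30). Fcgr2b, the inhibitory receptor, had 1406, 1033 and 648 CPM against 127 to 569 CPM (1.38 ± 0.36). Both separated the animals. Fcgr3 (0.75 ± 0.28), Tyrobp (1.05 ± 0.40) and Fcer1g (0.83 ± 0.34) overlapped between groups. The edgeR adjusted p was 0.579 for each of the 5. Without moderate animal 1, the highest animal for all 5, 2 were nominally higher.

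MHC class I molecules present peptides to T cells. Of 19 genes listed and tested, 12 had positive log2 fold changes (median 0.53), and 5 were nominally higher and 0 nominally lower. H2-D1, a class I heavy chain, had 1780, 2352 and 1215 CPM in moderate animals 1, 2 and 5 and 663, 1030.1, 833, 844 and 1005 CPM in Gpnmb+ animals 1 to 5, without overlap (log2 fold change 1.03 ± 0.22, edgeR adjusted p 0.577). H2-K1, another heavy chain, had 974, 1115 and 565 CPM against 345 to 521 CPM (1.04 ± 0.26). The light chain gene B2m had 5160, 2942 and 1883 CPM against 1279 to 2054 CPM (0.95 ± 0.27). The immunoproteasome subunit genes Psmb8 (1.24 ± 0.40) and Psmb10 (1.31 ± 0.58) overlapped between groups. H2-D1 and H2-K1 are close paralogs that can share reads. Without moderate animal 1 the count was 2, and without moderate animal 2 the median was -0.06.

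The B2m promoter is shown as that of a nominally higher class I gene, since interferon-responsive sites are known at such promoters. The interferon-stimulated motif, GAAA, any 2 bases and GAAA again, was searched on both strands of the same windows. Again the background counts every entry, and each list 1 start per gene. It occurred in 978 of 32851 promoters (2.98%) and in 3 of the 17 promoters matched to the class I list, those of B2m, H2-T22 and H2-T23 (17.6%). Its share was no lower in ribosomal protein promoters, with 6 of 31 (19.4%), and 7.14% of the immediate early ones held it. Capitals mark the motif, which lies at bases -139 to -130 from the start.
B2m, chr2:122147437-122147686, plus strand: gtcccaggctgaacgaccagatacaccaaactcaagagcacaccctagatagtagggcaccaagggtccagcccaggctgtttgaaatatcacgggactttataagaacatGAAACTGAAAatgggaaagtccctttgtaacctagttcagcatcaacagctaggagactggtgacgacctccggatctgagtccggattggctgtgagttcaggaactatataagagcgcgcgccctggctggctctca
In the interferon response list itself, 41 of 41 genes were tested, 27 with positive log2 fold changes (median 0.45), 3 nominally higher and 1 nominally lower. Of these, Ifi27l2a, a mitochondrial interferon-induced gene, separated the animals, with 106, 77.0 and 92.9 CPM against 0 to 15.2 CPM (3.55 ± 1.36). Ifit3b and Ifi44 were at 0 in at least 1 moderate animal, and Ifit2 in all 3.

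Lysosomal genes did not share a direction. Of 44 listed, 43 were tested, 24 with positive log2 fold changes (median 0.02), 8 nominally higher and 1 nominally lower. The higher ones were led by proteases and cargo proteins: Ctss, the cathepsin of antigen processing, at 0.71 ± 0.21 (0.11 with sample quality weights, -0.057 with a random animal effect and 0.31 without moderate animal 1), Ctsl at 1.08 ± 0.33 and Cd63, a tetraspanin of late endosomes, at 1.34 ± 0.47. Cd63 had 561, 364 and 240.3 CPM against 40.9 to 219 CPM, without overlap. Ctsf, another cathepsin gene, named after its values were seen, was the lower one (-0.90 ± 0.39). Without moderate animal 1 there were 3 higher genes, and without the 5 retinas under 10000 genes 6 higher and 5 lower.

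Chemokine genes had 19 of 21 past the filter, 13 with positive log2 fold changes (median 0.45), 4 nominally higher and 0 nominally lower. Ccl12, an attractant of monocytes, had 2338, 902 and 1987 CPM in moderate animals 1, 2 and 5 and 734, 378, 252, 228 and 436 CPM in Gpnmb+ animals 1 to 5. Over animals the groups did not overlap (log2 fold change 2.10 ± 0.45, edgeR adjusted p 0.577), and the mild (666 and 347 CPM) and severe (707 and 785 CPM) animals were below the moderate ones as well. By retina they did overlap. The right eye of moderate animal 2 had 577.7 CPM, below the right eye of Gpnmb+ animal 1 (610 CPM) and every severe retina (603.2 to 857.9 CPM). The left eye of mild animal 4 had 1509 CPM, above both eyes of moderate animal 2. Cxcl16, a membrane-bound chemokine, had 365, 223 and 258 CPM against 15.3 to 183 CPM (1.64 ± 0.56). By retina Cxcl16 overlapped too, with 335.9 CPM in the right eye of Gpnmb+ animal 3 and 162.6 to 320.7 CPM in the moderate retinas. Cxcl13, an attractant of B cells, had 404, 291 and 112 CPM against 0 to 81.0 CPM. Ccl7 had 144 CPM in moderate animal 5, 12.5 in animal 2 and 0 in animal 1. Ccl3, in contrast, had a log2 fold change of -1.09 ± 0.59. Among cytokine and NF-kB genes, 23 of 27 were tested, 2 were nominally higher and 2 nominally lower. The cytokine gene Il1b had 109.8, 113 and 33.7 CPM against 0 to 16.2 CPM, and Bcl2a1b, a survival gene with near-identical copies that can share reads, had 357, 234 and 255 CPM against 116 to 190 CPM. The feedback genes Nfkbiz (-1.28 ± 0.55) and Socs3 (-1.10 ± 0.50) were the lower ones. Without Gpnmb+ animal 3 or 4, 2 chemokine genes were higher in place of 4.

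Cytosolic ribosomal protein genes all pointed up. The 41 listed were tested and had positive log2 fold changes from 0.30 to 1.46 (median 0.91), and 28 were nominally higher and 0 nominally lower. Rpl8, of the large subunit, had 892, 480.4 and 446 CPM in moderate animals 1, 2 and 5 and 277, 199, 200.2, 217 and 372 CPM in Gpnmb+ animals 1 to 5, without overlap (log2 fold change 1.26 ± 0.32). Rps3 (0.91 ± 0.29), of the small subunit, also separated the animals, while Rpl18 (1.46 ± 0.44) and Rps18 (1.28 ± 0.39) did not. For 11 of the 41 the groups did not overlap. The edgeR adjusted p was 0.579 for these 4 genes. Moderate animal 1 was the highest animal for each of them, and without it 2 of the 41 were nominally higher and the median was 0.56. Without Gpnmb+ animal 4, 18 were. Processed pseudogenes can take reads of these genes.

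Nuclear genes of oxidative phosphorylation, the subunits of the respiratory chain and ATP synthase, had 44 of 49 positive log2 fold changes (median 0.90), 8 nominally higher and 0 nominally lower. Cox4i1, a subunit of cytochrome c oxidase, had 737, 294 and 266 CPM against 147 to 218 CPM (1.24 ± 0.35), and Atp5b, the catalytic subunit of ATP synthase, 496, 360.3 and 512 CPM against 229 to 318 CPM (0.71 ± 0.27). Both separated the animals, as did Cox6b1, another cytochrome c oxidase subunit (1.42 ± 0.59), while Cox8a (1.16 ± 0.45) and Ndufa4 (1.27 ± 0.54) did not. Without moderate animal 1 the count was 0, without animal 5 it was 5, without Gpnmb+ animal 3 it was 4 and without the 5 retinas under 10000 genes it was 16. The 13 genes encoded by mitochondrial DNA had 12 positive values (median 0.44) and 2 nominally higher, mt-Co2 (1.05 ± 0.40) and mt-Atp6 (0.83 ± 0.35). Mitochondrial genes took 2.98%, 2.06% and 2.34% of the counts in the moderate animals and 1.21% to 2.45% in the Gpnmb+ animals. In glycolysis 23 genes were tested, 1 nominally higher and 1 nominally lower. Ldha, the lactate dehydrogenase A gene, had 499, 337 and 408 CPM against 115 to 256 CPM (1.11 ± 0.32), without overlap over animals. By retina Ldha overlapped, with 585 CPM in the right and 17.6 CPM in the left eye of Gpnmb+ animal 3. The moderate retinas had 249.5 to 438.9 CPM. Pfkp, a phosphofructokinase gene, had 0 counts in the moderate animals and up to 36.3 CPM in Gpnmb+ animals.

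**Figure D2:**
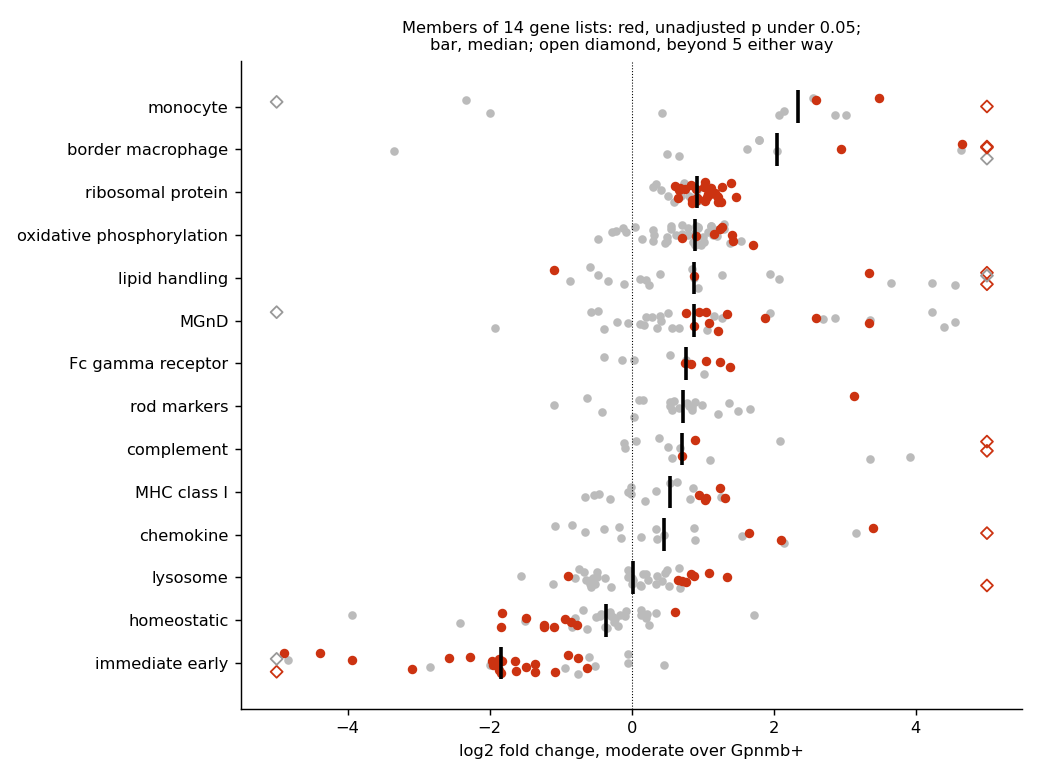
Log2 fold change of moderate over Gpnmb+ microglia (x axis) for each tested member (points) of 14 lists (rows), red at a nominal p under 0.05, with the median as a bar and values beyond 5 either way drawn as diamonds at the edge. Immediate early members lie to the left (median -1.84) and ribosomal protein members to the right (median 0.91), while lysosomal members straddle 0.

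Some genes outside these lists, chosen after their values were seen, had small nominal p. Bcl9, a cofactor of beta-catenin (chromosome 3, 97203662 to 97297917), had 8.91, 9.07 and 7.98 CPM in moderate animals 1, 2 and 5 and 73.0, 92.0, 41.2, 125 and 76.0 CPM in Gpnmb+ animals 1 to 5. The log2 fold change was -3.23 ± 0.58, and against mild and severe animals together it was -2.68 ± 0.57. By retina, however, Gpnmb+ values ran from 0 to 501 CPM and so overlapped those of the moderate retinas (3.06 to 10.9 CPM). Ppp1r15a, a stress gene that restores translation, had 143, 96.6 and 93.9 CPM against 223 to 503 CPM (-1.62 ± 0.36). Tmem176a, an ion channel family gene of myeloid cells, had 1512, 627 and 379 CPM against 183 to 349.6 CPM (1.48 ± 0.36), and its neighbour Tmem176b had a log2 fold change of 1.14 ± 0.36. Csmd3 had 95.0, 74.1 and 160.1 CPM against 155 to 420.3 CPM (-1.59 ± 0.38), with overlap.

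Markers of other cells also differed between the groups, and their part in the differences above was not tested. Border-associated macrophages of the meninges and vessels are related to microglia and also carry CD11b, while the sort for Fcrls is meant to leave such cells out. Their 16 markers, of which 13 were detected in the moderate and 12 in the Gpnmb+ retinas, summed to 662, 431 and 438 CPM in moderate animals 1, 2 and 5 and to 21.3, 162, 253, 157 and 205 CPM in Gpnmb+ animals 1 to 5. The groups did not overlap (exact two-sided permutation test of the difference in means, p 0.0357, the smallest that 56 splits can give, and 0.214 adjusted over 18 measures). Of the 13 that passed the filter, 4 were nominally higher. Clec4n, the dectin-2 gene, had 5.94, 26 and 37.2 CPM and 0 counts in every Gpnmb+ animal, and Ms4a6c had 166, 73.9 and 50.9 CPM against 0 to 31.6 CPM. Ms4a7 and F13a1 overlapped, F13a1 being at 0 in moderate animal 1. The left eye of moderate animal 2 had 81.9 CPM in sum, within the Gpnmb+ range, and its right eye 608.5 CPM. Without moderate animal 1 the count was 2, and without the 5 retinas under 10000 genes it was 1.

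Monocyte markers summed to 2419, 1152 and 850 CPM in the moderate animals and 138 to 595 CPM in the Gpnmb+ animals, also without overlap (exact permutation p 0.0357, adjusted 0.214). Lyz2, which microglia in the MGnD state also express, made up most of this sum, and without it the sums were 94.1, 74.7 and 214 CPM against 13.9 to 82.9 CPM, with overlap. Of 19 markers, 12 passed the filter and 3 were nominally higher, with a median log2 fold change of 2.34 that was 0.00 without moderate animal 5. The defining monocyte genes Ly6c2, Plac8 and Chil3 had 0 counts in the moderate retinas. In the Gpnmb+ retinas Chil3 was at 0 too, and Ly6c2 had 3 counts in the left eye of animal 1. Plac8 had 97 and 92 counts in the right eyes of Gpnmb+ animals 4 and 5. Since cells with Ly6c were sorted out, Ly6c2 cannot show whether other monocytes were present. Ccr2, the receptor of blood monocytes, had 1.37, 1.85 and 65.8 CPM against 1.27 to 10.5 CPM. The T cell genes Cd3e and Cd3g and the neutrophil genes S100a8, S100a9 and Ly6g were at 0 in the retinas of both groups. Lymphocyte markers summed to 338, 397 and 210.0 CPM in moderate animals 1, 2 and 5 and to 319 to 508 CPM in the Gpnmb+ animals, most of it Ighm.

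Rod photoreceptor transcripts were present in every library. Their sum was 7277, 2432 and 4833 CPM in moderate animals 1, 2 and 5 and 537, 13493, 1953, 1033 and 705 CPM in Gpnmb+ animals 1 to 5, so that Gpnmb+ animal 2 was the highest of the 8 and the others were below the moderate animals. Of the 22 markers, 19 had positive log2 fold changes (median 0.72) and 1 was nominally higher, the exchanger gene Slc24a1 (50.9, 14.3 and 73.7 CPM against 0.375 to 15.6 CPM). Without Gpnmb+ animal 2 the count was 11 and without the 5 retinas under 10000 genes 12, with medians of 2.21 and 2.62, while without moderate animal 1 the median was 0.02 and without moderate animal 5 the count was 0. Muller glia and astrocyte markers, without Apoe, summed to 299.8 to 391 CPM in the moderate and 276 to 566 CPM in the Gpnmb+ animals, and Gfap and Pax2 were at 0 in both groups. Of 13 ganglion cell markers 12 were at 0 in the moderate retinas, and 4 were detected in the Gpnmb+ retinas.

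**Figure D3:**
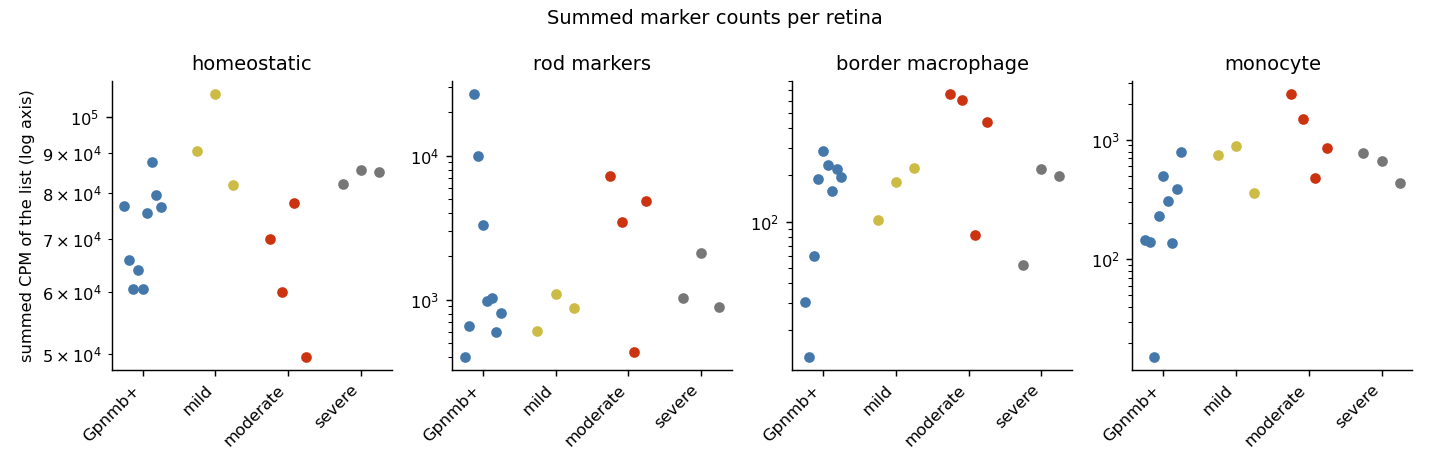
Summed CPM (log axis) per retina (points) of homeostatic, rod, border macrophage and monocyte markers for Gpnmb+ (9 retinas), mild (3), moderate (4) and severe (3) DBA/2J at 12 months. Rod sums of the moderate retinas ran from 434.6 to 7277 CPM, and border macrophage sums from 81.9 to 661.8 CPM, with the left eye of animal 2 lowest in both.

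To ask what belonged to the moderate grade, moderate sums were set against mild and severe sums in the same fit. Here 0 of 15965 genes (0%) had an adjusted p under 0.05 by edgeR (smallest 0.643), and at a nominal p under 0.05, 844 (5.29%) were higher and 376 (2.36%) lower. Ribosomal protein genes were higher than in mild and severe retinas too, with 17 of 41 past that level and a median of 0.86. Homeostatic genes had 14 of 40 lower and 0 higher, with a median of -0.57, among them P2ry12 (-1.04 ± 0.28) and Sall1 (-1.27 ± 0.44). Immediate early genes had 10 of 34 lower and 2 higher (median -0.45), and rod markers 10 of 22 higher (median 2.72). These counts were smaller with animal 1 or 5 left out. So were the nominal counts over all genes, so the fall was not particular to these lists. The fits without animal 1 or 5 leave 1 severe or 1 mild animal. Without animal 1 they were 1 for ribosomal protein (median 0.50), 5 for homeostatic, 3 for immediate early and 2 for rod genes, and without animal 5 they were 5, 5, 0 and 6. With each retina as a replicate they were 1, 2, 1 and 8, while 790 of all 14685 genes were higher and 342 lower. With sample quality weights 24 ribosomal protein genes were higher, and 17 homeostatic and 0 immediate early genes lower. With the animal as a replicate block, which pairs the eyes of animals 1 and 5, these 3 counts were 21, 17 and 10. MHC class I and Fc gamma receptor genes had 0 past that level in either direction and complement genes 2 higher (0 without animal 1 or without animal 5). H2-D1 (0.24 ± 0.24), C1qa (0.07 ± 0.19) and Fcgr1 (0.32 ± 0.31) were not past that level, while Ccl12 (1.5 ± 0.48), Fth1 (1.02 ± 0.35) and Ldha (1.14 ± 0.34) were higher at a nominal p under 0.05.

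Each grade was also set against the same 5 Gpnmb+ animals, which the 3 comparisons thus share. Medians for the MGnD list were 0.55 in mild, 0.88 in moderate and 0.54 in severe retinas, and those of immediate early genes were -0.83, -1.84 and -0.86. For ribosomal protein genes they were 0.24, 0.91 and 0.01, and for homeostatic genes 0.21, -0.36 and 0.24. The moderate value was thus the farthest from 0 in each of these 4 lists. MHC class I medians were 0.36, 0.53 and 0.58, with severe the highest. With 2 animals in the mild and severe groups, and animals 1 and 5 in 2 grades each, these values are side by side only. The grades also differed in sex-linked genes. Y-linked Ddx3y had counts in both mild animals, in moderate animal 5 and in neither severe animal, and Xist was high in both severe animals. Grade and sex thus cannot be told apart in comparisons between grades of different animals.

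**Figure D4:**
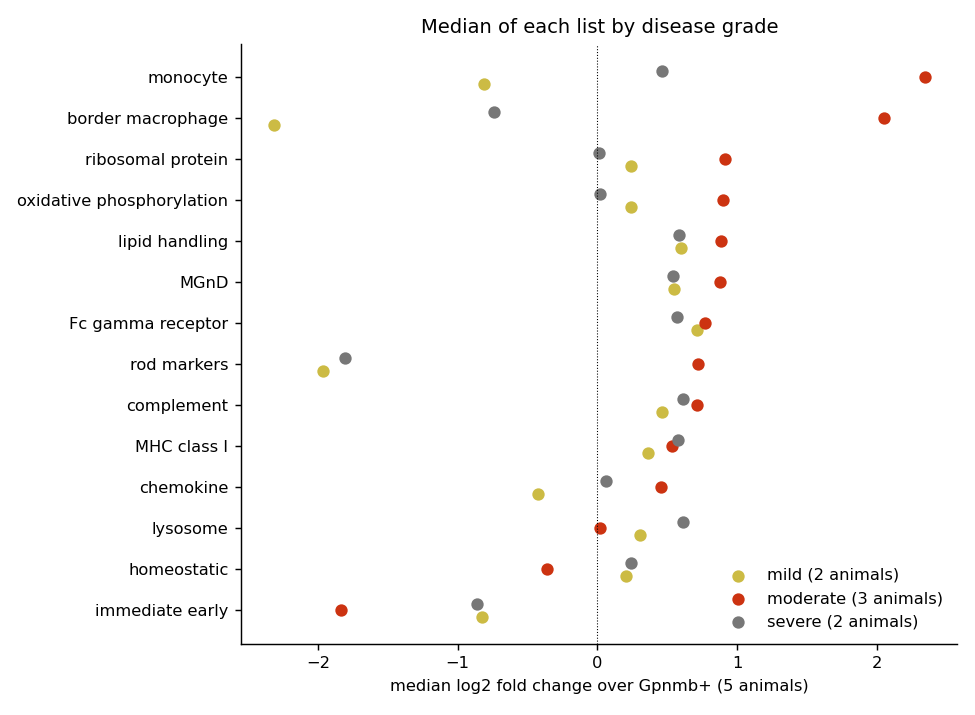
Median log2 fold change over Gpnmb+ (x axis) of the tested members of 14 lists (rows) for mild (2 animals), moderate (3) and severe (2) DBA/2J retinas. Moderate points lie apart from the other grades for ribosomal protein (0.91 against 0.24 and 0.01) and immediate early genes (-1.84 against -0.83 and -0.86).

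The eyes of 1 animal share genotype, age and handling of the animal, and in animals 1 and 5 they differ in grade. Ratios were taken of CPM with 1 added, over genes whose average log2 CPM was 6 or more, and are given without a test. In animal 1 (moderate right eye over severe left eye) 38 of 39 ribosomal protein genes were positive (median log2 ratio 1.42), and in animal 5 (moderate left eye over mild right eye) 39 of 39 were (median 1.11). Homeostatic genes were negative for 32 and 33 of 36 (medians -0.91 and -0.97), and immediate early genes for 16 and 17 of 20 (medians -0.95 and -1.54). Complement genes had medians near 0 (-0.02 and -0.09), and MHC class I genes -0.32 and -0.21. The median of all 2183 genes was -0.33 and -0.21. Rod markers were positive for 9 of 9 in both animals (medians 3.00 and 1.91). The 2 moderate eyes of animal 2 differed little in ribosomal protein (median 0.07) and homeostatic genes (-0.22) but had a median of 3.37 for rod markers, right over left. Their medians were -0.63 for MHC class I, -0.42 for complement, -0.34 for immediate early and -0.03 for all genes. For MHC class I and complement genes, this pair of equal grade thus lay farther from 0 than the pairs of unlike grade. For Apoe the moderate eye had 32974 CPM and its severe fellow eye 15550 CPM in animal 1, and 8056 CPM against 4031 CPM in the mild fellow eye in animal 5. The same direction held for Ccl12, with 2054 against 650.1 CPM in animal 1 and 2091 against 369.8 CPM in animal 5. The 2 moderate eyes of animal 2 differed in these genes as well. Right against left, they had 14727 against 8420.5 CPM for Apoe and 577.7 against 1302 CPM for Ccl12.

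**Figure D5:**
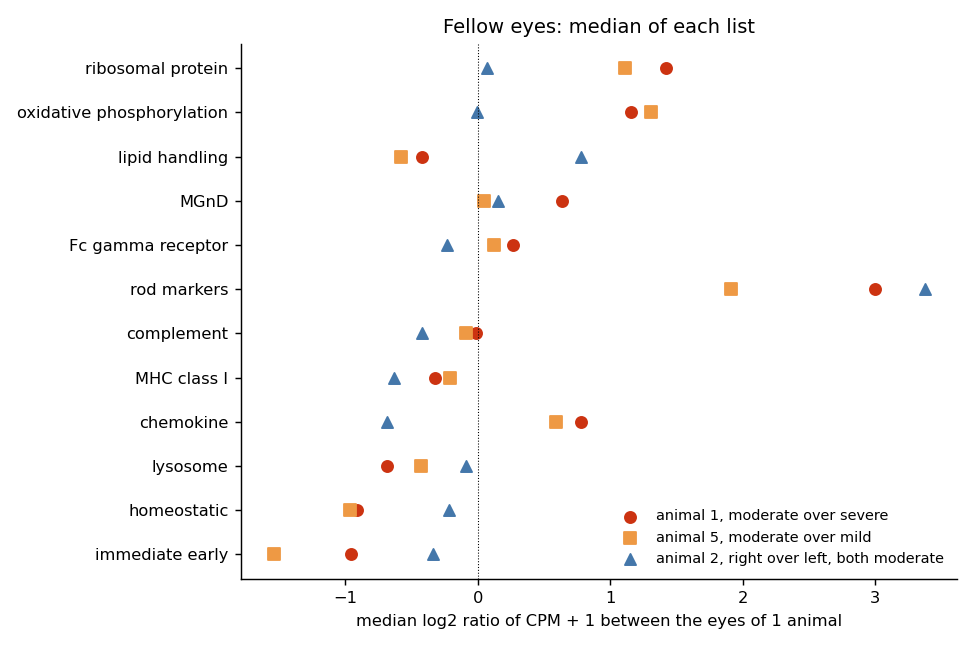
Median log2 ratio of CPM + 1 (x axis) between the eyes of animal 1 (moderate over severe), animal 5 (moderate over mild) and animal 2 (right over left, both moderate) for 12 lists (rows). Ribosomal protein medians are 1.42 and 1.11 in the pairs of unlike grade and 0.07 in animal 2, while rod medians are at least 1.91 in the 3 animals.

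The other lists had small counts past the threshold, though some shares were above those of all genes (4.76% higher, 3.71% lower). At a nominal p under 0.05, MHC class II had 2 of 16 higher (12.5%) and 0 lower, and iron genes 3 of 15 higher (20%) and 1 lower (6.67%). TGF-beta genes had 2 of 25 higher (8%) and 4 lower (16%). Heat shock genes had 0 of 15 higher and 1 lower (6.67%), Dnajb1, a cochaperone (-2.01 ± 0.64). Toll-like receptor genes had 1 of 19 higher, TAM receptor genes 1 of 13 (Axl), cholesterol synthesis genes 1 of 20, and proliferation genes 0 of 36 in either direction. Of the iron genes, Cp, the ceruloplasmin gene, had 57.1, 42.9 and 58.5 CPM against 0 to 9.58 CPM, and Slc40a1, the iron exporter ferroportin, had a log2 fold change of -1.79 ± 0.74.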

How the data were processed

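Per the file headers, the deposited per-retina files hold expected counts per gene (estimated reads, not normalised), as the authors made them. The submitters' processing notes name Salmon 1.4.0, R 4.0.3, DESeq2 1.30.1 and mm10 without roles. They give neither the aligner nor the annotation release. Another deposited table with 24 columns of per-sample values was not used.

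Expected counts were rounded and summed over an animal's eyes of the same grade. The 17 sums (3 moderate, 2 mild, 2 severe, 5 Gpnmb+ and 5 at 6 months) entered 1 fit with edgeR 4.0.16 in R 4.3.3 (TMM, minimum count 10 and total 15, quasi-likelihood test, Benjamini-Hochberg over all genes, threshold 0.05). Sums of animals 1 and 5 in different grades were taken as independent. The scripts were tested on simulated counts of this design. There edgeR called 0 of 74 genes changed 2-fold, 2 of 66 changed 4-fold, 13 of 60 changed 8-fold and 0 unchanged genes. DESeq2 called 2, 15 and 34 of the changed genes and 134 unchanged ones. A count of 0 by edgeR thus does not show that levels were equal. DESeq2 1.42.0 and limma 3.58.1 gave alternatives. Libraries of a group differed beyond sampling noise (58 pairs), so none counted as a duplicate.

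Of 47729 gene IDs, 47310 had a symbol, and coordinates are GENCODE vM21 on GRCm38. Members and the 35 gene lists were chosen with earlier results of these data known. Named were a panel of microglial genes and up to 5 members of each list by the smallest p, and other genes are marked. The sums without Apoe and without Lyz2 were added after seeing the data. Some members of the lists are not reported here.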

Additional observations from a re-analysis of the deposited data

Results flagged for a closer look

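In 14 of 119 sets of 5 Gpnmb+ values (genes and summed measures named here), 1 animal lay far from the other 4 by Dixon's criterion, which chance alone meets in about 1 of 20 sets. Animal 2 was the highest for the summed rod markers (13490.0 CPM), the summed red cell markers (11.7 CPM) and Gadd45g (221 CPM), and the lowest for Tmem176a (183 CPM). Animal 5 was the highest for the summed ganglion cell markers (7.63 CPM), Ccl7 (4.05 CPM), F13a1 (0.757 CPM), Ifi44 (0.0987 CPM), Ifit2 (20 CPM), Ifit3b (0.296 CPM) and the Y-linked gene Ddx3y (49.9 CPM). Animal 1 was the highest for Egr1 (5375 CPM), and animal 3 for Gapdh (134 CPM) and Cfb (0.0595 CPM). Several of these values stand on very few reads, while those of Egr1, Gapdh, Tmem176a and the rod sum do not.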

How the results depend on the processing

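Against Gpnmb+, 296 genes were called by DESeq2 (78 higher, 218 lower), 33 without a filter on low counts, 13 with a random animal effect over retinas, 1 with each retina as a replicate (Apoe) and 1 with sample quality weights (mt-Rnr2). Leaving out 1 animal gave 0 to 4 calls, with Apoe, C1qb, Ctss and B2m called without moderate animal 5, Gpr34 without moderate animal 2, and Apoe and Ttc33 without Gpnmb+ animal 5. Against mild and severe together, the counts were 406 by DESeq2, 33 without a filter, 4 with a random animal effect and 0 to 1 with 1 animal left out (Gpr34 without animal 2). The other alternatives of both comparisons gave 0 calls, and the cause of the differences was not tested. In simulated counts DESeq2 also called 134 unchanged genes, and edgeR 0. A replicate block called 0 genes in either comparison. Against Gpnmb+ the block was the animal number. Against mild and severe it was the animal itself, which paired the eyes of unlike grade in DBA/2J animals 1 and 5. Animals with the same number in the 2 strains did not deviate together (r = 0.198, 0.009 and 0.083), so the numbers were not taken as pairs.

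The sign of some fold changes turned. With a random animal effect the log2 fold change was 0.079 for C1qc, -0.057 for Ctss, -0.00087 for Ddx3y, -0.0013 for Tmem119 and -0.045 for Trem2; this fit moved the median of all genes to 0.64, and the replicate block moved it to 0.52. Without retinas under 10000 genes, C1qc was 0.13, Ddx3y -0.65 and Tmem119 -0.16. Csf1r was 0.17 with the replicate block, Ddx3y -0.48 with each retina as a replicate, and Tmem119 -0.086 with only the larger retina. With 1 animal left out, the log2 fold change ran from -0.30 to 0.10 for C1qc, from -1.71 (without moderate animal 5) to 2.70 for Ccr2, from -2.24 to 0.0077 for Clec7a, from -10.24 to 10.22 for Ddx3y, from -0.053 to 1.08 for Gadd45g, from -3.46 (without moderate animal 2) to 8.51 for Ifit3b, from 0 (without moderate animal 2) to 10.11 for Nr1h3 and from -0.30 to 0.37 for Tmem119. Depth and the small number of sorted cells limit these values, and not only for genes under about 10 counts. Nr1h3 had 285 and 0 counts in the right and left eyes of moderate animal 2, and Gpnmb 0 and 459 in those of Gpnmb+ animal 5. Rps3 had 0 counts in the right eye of Gpnmb+ animal 2, while the median of the Gpnmb+ retinas was 353 CPM. The 3 moderate animals limit each fold change as well.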

Other observations

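Set against mild and severe animals together, glycolysis and lysosome genes of the moderate animals pointed to opposite sides. As above, nominal counts over all genes in this comparison were also smaller without animal 1 or without animal 5. Of 23 glycolysis genes, 6 were higher and 1 lower at a nominal p under 0.05 (median log2 fold change 0.71, against 0.12 for all genes). Without animal 1, without animal 5, or with each retina as a replicate, 2 were higher. The higher ones were Ldha, described above, with Eno1, Gapdh, Pgam1, Aldoa and Pkm. Eno1, the enolase gene, had 274.5, 206 and 345 CPM in moderate animals 1, 2 and 5, 105 and 35.8 CPM in the mild and 127 and 86.3 CPM in the severe animals, without overlap (1.67 ± 0.54). Gapdh had 153, 116 and 107 CPM, against 53.6 and 43.7 CPM in the mild and 53.3 and 61.9 CPM in the severe animals (1.24 ± 0.44). Against Gpnmb+ the same genes overlapped, with log2 fold changes of 0.57 ± 0.51 for Eno1 and 0.61 ± 0.42 for Gapdh. Both were named after their values were seen.

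Of 43 lysosome genes, 0 were higher and 5 lower in that comparison (median -0.29), among them the protease genes Ctsd and Ctsf, the membrane protein gene Lamp2 and the proton pump accessory gene Atp6ap2. The 5 became 2 without animal 1 or without animal 5, 3 without animal 3, 8 without animal 2 and 1 with each retina as a replicate. Gpr34, a lysophospholipid receptor gene of homeostatic microglia, had 237, 1054 and 196 CPM, against 1233 and 1449.6 CPM in the mild and 1782 and 1291 CPM in the severe animals (-1.53 ± 0.42). Rod markers, at 2432 to 7277 CPM in sum in the moderate and 710.3 to 1308 CPM in the mild and severe animals, moved with these differences, and their part in them was not tested.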
